A study of Homo sapiens with 8 samples.

Results

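The genes described here are those that pancreatic duct cells use to secrete chloride and bicarbonate: CFTR, SLC26A3, SLC26A6, SLC4A2, SLC4A4, CA2, CA12, ANO1 and SLC12A2. They were chosen by symbol for their known roles, and all 9 were found among the 58870 genes of the deposited table. Earlier results of these data were known when they were chosen, so shares of them called are descriptions only. The 8 libraries came from CFPAC-1, an established line from the pancreatic ductal adenocarcinoma of a person with cystic fibrosis, which carries the common phenylalanine deletion of CFTR. In 4 libraries the cells held an empty vector and in 4 an ADRA2A transgene, and both groups grew for 72 hours in IMDM medium with serum and antibiotics and received no drug. ADRA2A is the alpha-2A adrenergic receptor, which acts mainly through Gi and lowers cyclic AMP, the messenger that opens CFTR. The labels named neither the promoter that drives the transgene nor whether the cells were 1 clone or a pool. They also did not say whether the 4 libraries of a group came from separate cultures, so the p-values below measure only the spread between these libraries, which may be technical.

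Duct cells add a bicarbonate-rich fluid to the enzyme-rich juice of the acini. Carbonic anhydrases make bicarbonate from carbon dioxide and water, basolateral cotransporters bring in bicarbonate and chloride, and at the apical side chloride channels and chloride/bicarbonate exchangers of the SLC26 family pass them into the duct lumen. Secretin raises cyclic AMP in the duct cell, and protein kinase A then phosphorylates and opens CFTR. Calcium opens a second apical route, the channel ANO1. In cystic fibrosis the CFTR route fails and duct secretion turns thick and poor in bicarbonate.

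Library totals lay between 14427035 and 17528915 counts, with both groups spanning this range alike. ADRA2A had 0 counts in all 4 empty-vector libraries and 112, 142, 154 and 172 counts in the 4 ADRA2A libraries. Markers of duct epithelium were abundant: 9 of 10 were tested, and their summed level lay between 12214 and 12791 CPM (counts scaled to the library total with TMM factors) with the empty vector and between 12153 and 13209 CPM with ADRA2A. KRT8, KRT18 and KRT19 made up most of this sum, with empty-vector means of 4880, 2529 and 2826 CPM. Of the 9, 4 rose and 4 fell, among them the mucin gene MUC1 at a log2 fold change of 0.79 and the keratin gene KRT7 at -0.43 (edgeR adjusted p = 4.76e-12 and 2.74e-09). At an adjusted p-value under 0.05, 21.6% of all tested genes were higher and 21.1% lower. The 10th duct marker is CFTR itself, which was too low to pass the count filter. The 8 acinar markers summed to at most 1.12 CPM in any library and all 5 endocrine markers were at 0 counts. Among the 5 fibroblast markers the sum was at most 2.09 CPM. Of 4 immune markers CD68 made up nearly all of the sum and rose from 91.6 to 114.3 CPM, while CD3E was at 0. The others were low, PTPRC at 0.113 and 0.0495 CPM and CD14 at 1.56 and 1.93 CPM, empty vector first. Of 3 endothelial markers PECAM1 rose from 0.773 to 2.44 CPM and CDH5 was at or near 0. VWF, too low to be tested, went the other way, from 0.235 to 0.0323 CPM. The 3 summed to 0.820 to 1.49 CPM with the empty vector and to 2.15 to 2.85 CPM with ADRA2A. The part of these markers in the results below was not tested.

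The 250 bases upstream of the RefSeq start (GRCh38.p14) were available for 8 of the 9 genes and were searched on both strands for the cyclic AMP response element TGACGTCA, its half-site TGACG, the variant element TGACATCA, the GC box GGGCGG, the TATA box TATAAA and the CCAAT box CCAAT. CA2 was the gene with no such sequence available, so it was not searched. The half-site lies inside the full element, so a match to the full element also counts for it. The variant was added after the CFTR sequence had been read, so its match there was fixed in advance and is no comparison with other windows. The full element was in none of the 8 windows, against 1.77% of the 27305 RefSeq windows of this length. The variant was in the windows of CFTR and CA12 and in no other of the 8, against 2.45% of all windows. Those 2 sequences are shown because they share it, with each match to a searched motif in capitals, and 37 bases next to the CFTR start that some transcripts hold in an exon were left out. The CFTR window lies on the plus strand at chr7:117479775-117479987 and the CA12 window on the minus strand at chr15:63381847-63382096.
CFTR: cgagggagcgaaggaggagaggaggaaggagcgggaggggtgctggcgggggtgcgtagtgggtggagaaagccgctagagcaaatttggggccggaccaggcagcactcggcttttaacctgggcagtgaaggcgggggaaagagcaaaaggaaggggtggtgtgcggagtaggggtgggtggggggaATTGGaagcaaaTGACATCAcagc
CA12: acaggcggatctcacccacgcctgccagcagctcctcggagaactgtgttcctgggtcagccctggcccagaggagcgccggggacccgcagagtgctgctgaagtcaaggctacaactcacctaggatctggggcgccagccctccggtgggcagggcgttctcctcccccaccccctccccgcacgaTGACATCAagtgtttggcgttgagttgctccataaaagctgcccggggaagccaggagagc
In CFTR the variant element began 49 bases before the start and a reverse CCAAT box lay just ahead of it, 61 bases before the start. In CA12 the variant began 61 bases before the start, and no other searched motif matched. GC boxes were in the windows of ANO1 (4 matches), SLC12A2 (3) and SLC26A6 (2) and in no other of the 8. Of all windows 42.3% held at least 1. SLC12A2 held 1 half-site of the cyclic AMP element, which 21.7% of all windows hold. A match shows only that the letters are present.

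The apical channel that names the pathway was close to undetected as RNA in these cells. CFTR (ENSG00000001626.15; GRCh38 chromosome 7, 117287120 to 117715971, plus strand), the cyclic AMP-gated chloride and bicarbonate channel, had 8, 9, 20 and 9 counts in empty-vector replicates 1 to 4. In ADRA2A replicates 1 to 4 it had 7, 8, 8 and 4 counts. Empty-vector replicate 3 stood highest, ADRA2A replicate 4 lowest, and the groups overlapped. Summed over each group this made 46 counts with the empty vector and 27 with ADRA2A. In CPM the sums came to 0.715 (exact Poisson 95% interval 0.524 to 0.954) and 0.429 (0.283 to 0.625), intervals that cover counting error only. CFTR did not pass the filter, so it was not tested with the other genes. The mean was 0.708 ± 0.309 CPM with the empty vector and 0.431 ± 0.122 CPM with ADRA2A (SD, n = 4 each), a log2 ratio of -0.72. A two-sided exact permutation test over the 70 divisions of the libraries gave p = 0.0857, where the smallest possible was 0.0286. Without empty-vector replicate 3 the log2 ratio was -0.37 (exact permutation p = 0.171), and without empty-vector replicate 1 it was -0.87 (exact permutation p = 0.0286). The last of these is the smallest p that test allows, so the side of the 0.05 threshold on which CFTR fell depended on that library. In bulk RNA, fewer expressing cells and less RNA per cell cannot be told apart.

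The annotated span of CFTR begins upstream of the RefSeq start used for its promoter window. In this annotation its exons share 51 bases with CTTNBP2, 169 with WNT2 and 8 with CFTR-AS1, all on the other strand. WNT2 and CFTR-AS1 had 0 counts in every library, and CTTNBP2 at most 17. Because the use of strand in counting is not given in the sources used here, reads of the shared bases cannot be divided. As a description, the 5 of 12325 genes whose log2 CPM followed that of CFTR most closely over the 8 libraries were ARHGAP10, COX16, SMURF2, PSMC5 and VRK1. Their Pearson r lay between 0.95 and 0.97, picked as the highest of many and set against a gene with at most 20 counts.

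RNA of the second apical chloride route fell in the ADRA2A cells, and neither protein nor chloride current was measured in these data. ANO1 (ENSG00000131620.17; chromosome 11, 69985907 to 70189530, plus strand) encodes the calcium-activated chloride channel of the apical membrane. It stood at 214.1, 210.4, 232.3 and 217.3 CPM in the 4 empty-vector libraries and at 135.4, 143.7, 142.8 and 133.6 CPM in the 4 ADRA2A libraries. Each empty-vector library lay above each ADRA2A library, with a wide gap between the groups. The group means were 218.5 ± 9.60 and 138.9 ± 5.09 CPM (SD, n = 4 per group). The fitted log2 change was -0.65 ± 0.04 (SE; adjusted p = 9.55e-11 by edgeR, Benjamini-Hochberg over all tested genes), or 1.57-fold lower with ADRA2A. Its exons share 646 bases with ANO1-AS1 on the other strand, which had 0 counts, and 260 with a noncoding gene on the same strand (ENSG00000255191), which had at most 3.

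Across these genes 7 of the 9 passed the filter, each with at least 34 counts in every library, and 5 of the 7 had an adjusted p-value under 0.05. Of all 14785 genes tested, 42.7% passed the same threshold. The members called were 3 higher (CA12, SLC12A2 and SLC4A4), where 21.6% of all tested genes were higher, and 2 lower (CA2 and ANO1), where 21.1% were lower. The median log2 fold change of the 7 tested members was -0.06, against 0.00 over all tested genes. In 4 of the 7 the groups did not overlap, and this held for 39.2% of all tested genes. CA2 and CA12 also changed by 1 or more on the log2 scale in either direction, as 4.66% of all tested genes did with an adjusted p-value under 0.05. A larger absolute log2 fold change was found in 1.13% of tested genes for CA2, in 1.20% for CA12, in 9.85% for ANO1, in 38.9% for SLC12A2 and in 57.8% for SLC4A4.

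**Figure D1:**
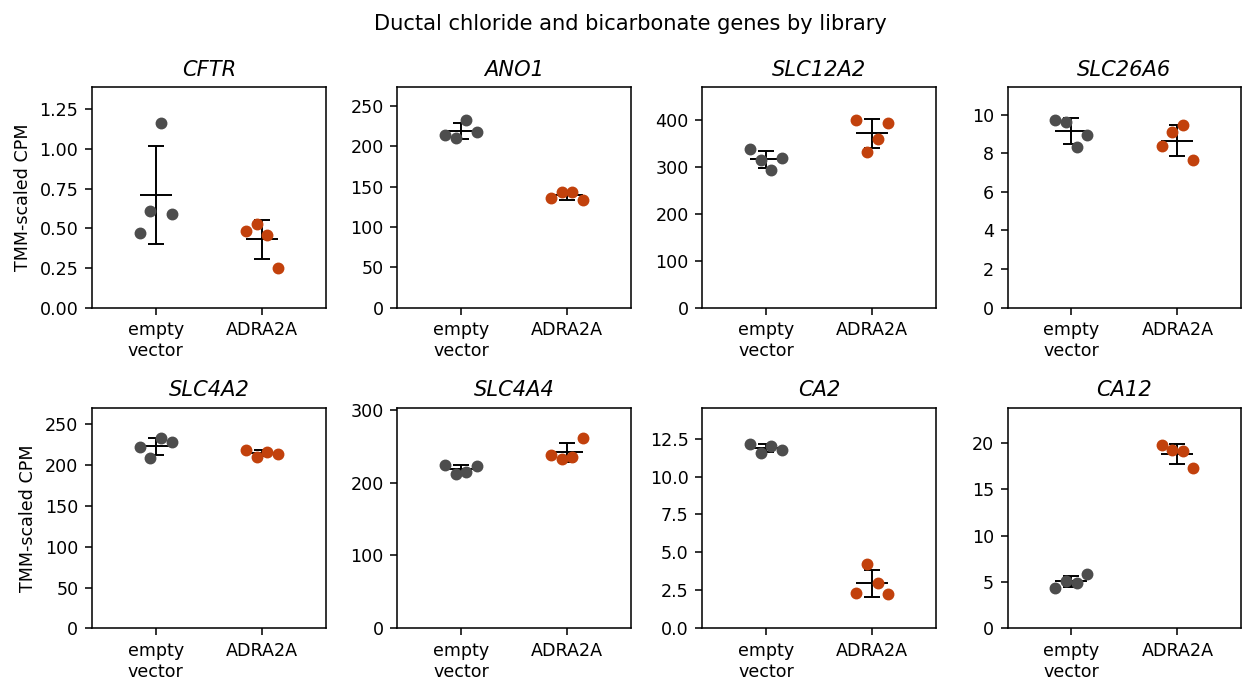
TMM-scaled CPM (vertical axis, from 0) of 8 genes in the 4 empty-vector libraries (grey) and the 4 ADRA2A libraries (orange), with bars for mean and SD. CA2 and ANO1 sit lower and CA12 higher in every ADRA2A library, while CFTR stays near or below 1 CPM throughout.

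**Figure D2:**
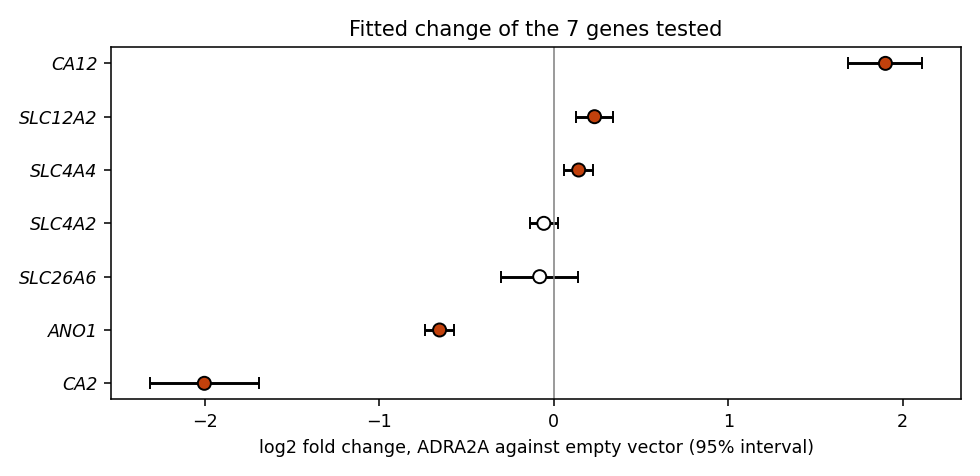
Fitted log2 fold change of ADRA2A against empty vector (horizontal axis) with its 95% interval for the 7 genes tested, filled where the adjusted p-value is under 0.05. CA12 at 1.90 and CA2 at -2.00 lie far from the other 5, and the intervals of SLC4A2 and SLC26A6 include 0.

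The carbonic anhydrase genes CA2 and CA12 moved in opposite directions. CA2 (ENSG00000104267.10; chromosome 8, 85463968 to 85481493, plus strand) encodes the fast cytosolic enzyme of duct cells. It had 207, 170, 207 and 180 counts in the empty-vector libraries and 34, 64, 52 and 36 counts in the ADRA2A libraries, at like depths. Each ADRA2A library was far below each empty-vector library, and ADRA2A replicate 2 was the highest of its group. CA2 fell from 11.9 ± 0.263 to 2.96 ± 0.900 CPM (SD, n = 4 per group). On the log2 scale the change was -2.00 ± 0.15 (SE; adjusted p = 1.76e-09 by edgeR), or 4.01-fold lower with ADRA2A.

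CA12 (ENSG00000074410.14; chromosome 15, 63321378 to 63381846, minus strand) encodes a membrane-bound enzyme whose catalytic domain faces outward. It stood at 4.39, 5.09, 4.88 and 5.83 CPM in the empty-vector libraries. In the ADRA2A libraries it stood at 19.7, 19.2, 19.1 and 17.3 CPM. Every ADRA2A library was far above every empty-vector library. CA12 rose from 5.05 ± 0.596 to 18.8 ± 1.07 CPM (SD, n = 4 per group). Its log2 change came to 1.90 ± 0.10 (SE; adjusted p = 1.25e-11 by edgeR), or 3.73-fold.

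The order of the pair turned over. Per kilobase of exon, the level of CA12 was 0.122 ± 0.016 times that of CA2 with the empty vector and 1.93 ± 0.478 times with ADRA2A (SD, n = 4 each). This ratio was formed after the values were seen and is given with no test. It lay between 0.104 and 0.142 in the empty-vector libraries and between 1.30 and 2.40 in the ADRA2A libraries. With the length of the longest transcript in place of all exons, the means were 0.109 and 1.72.

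CA2 lies in a cluster of carbonic anhydrase genes on chromosome 8. CA13, which encodes another cytosolic isozyme and is the nearest tested gene on one side, rose from 13.8 ± 1.01 to 17.8 ± 0.992 CPM (SD, n = 4 per group). The fitted log2 change was 0.36 ± 0.08 (SE; adjusted p = 0.00139 by edgeR). CA3, a muscle isozyme gene of the same cluster, was too low to be tested, with 4, 5, 5 and 8 counts in the empty-vector libraries and 15, 27, 10 and 9 in the ADRA2A libraries. CA1, the red-cell isozyme gene, had 0 counts in every library. Of the 10 other carbonic anhydrase genes listed, 3 were tested, and CA13 alone of these passed the threshold. CA9 stood at 2.90 ± 1.01 and 2.56 ± 0.604 CPM and CA5B at 4.24 ± 0.210 and 4.55 ± 1.43 CPM, empty vector first (SD, n = 4 each).

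Of the 3 chloride/bicarbonate exchangers among the 9 genes, SLC26A6 and SLC4A2 did not pass the threshold and SLC26A3 was too low to be tested. SLC26A6 (ENSG00000225697.13; chromosome 3, 48625723 to 48635493, minus strand), the apical exchanger of duct cells that works beside CFTR, stood at 9.72, 9.64, 8.31 and 8.97 CPM with the empty vector. With ADRA2A it stood at 8.37, 9.11, 9.45 and 7.65 CPM. The groups overlapped widely. The log2 fold change was -0.08, with a 95% interval from -0.30 to 0.14 (edgeR adjusted p = 0.576). SLC26A3, the apical exchanger best known from the colon (ENSG00000091138.12; chromosome 7, 107765467 to 107803225, minus strand), had 0 counts in all 8 libraries. Among 127337492 counts in all, this allows up to 3 counts, or 0.0236 CPM, for counting error alone.

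SLC4A2 (ENSG00000164889.14; chromosome 7, 151057210 to 151076526, plus strand) encodes the widely expressed basolateral anion exchanger AE2. Its libraries lay between 208.9 and 233.7 CPM with the empty vector and between 210.3 and 218.3 CPM with ADRA2A. The ADRA2A libraries fell inside the range of the others. The log2 fold change was -0.06, with a 95% interval from -0.14 to 0.02 (edgeR adjusted p = 0.243). An overlapping gene on the other strand (ENSG00000244151, 713 shared exon bases) had at most 8 counts.

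The basolateral cotransporter genes rose slightly. SLC12A2 (ENSG00000064651.14; chromosome 5, 128083766 to 128189677, plus strand) encodes the sodium-potassium-chloride cotransporter that loads the cell with chloride. It stood at 336.9, 315.3, 292.7 and 317.8 CPM with the empty vector and at 398.7, 331.9, 360.3 and 394.4 CPM with ADRA2A. ADRA2A replicate 2 lay just below empty-vector replicate 1, so the groups overlapped. SLC12A2 rose from 315.7 ± 18.1 to 371.3 ± 31.4 CPM (SD, n = 4 per group). On the log2 scale the change was 0.23 ± 0.05 (SE; adjusted p = 0.000966 by edgeR), or 1.18-fold.

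SLC4A4 (ENSG00000080493.17; chromosome 4, 71062667 to 71572087, plus strand) encodes the electrogenic sodium bicarbonate cotransporter through which duct cells take up bicarbonate. It stood at 224.3, 212.1, 215.2 and 223.6 CPM with the empty vector. With ADRA2A it stood at 238.7, 232.1, 234.9 and 260.8 CPM. The groups did not overlap, though the lowest ADRA2A library was close to the highest empty-vector one. SLC4A4 rose from 218.8 ± 6.10 to 241.6 ± 13.1 CPM (SD, n = 4 per group). Its log2 change came to 0.14 ± 0.04 (SE; adjusted p = 0.00652 by edgeR), or 1.10-fold.

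Replicates of the abundant genes varied little. The coefficient of variation (SD as a share of the mean) lay between 1.66% and 8.46% in either group for ANO1, SLC12A2, SLC4A2 and SLC4A4. The median over tested genes was 6.80% with the empty vector and 6.84% with ADRA2A. CA2 had 2.21% with the empty vector but 30.4% with ADRA2A, where it held 34 to 64 counts. CFTR had 43.7% and 28.3%.

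Levels of different genes were compared as CPM per kilobase of annotated exon. In the empty-vector cells ANO1 led at 34.9 ± 1.53, followed by SLC12A2 at 29.6 ± 1.70, SLC4A2 at 29.5 ± 1.41 and SLC4A4 at 23.4 ± 0.654 (SD, n = 4 each). SLC12A2 and SLC4A2 did not differ beyond their spread. Well below them came CA2 at 5.91 ± 0.131, SLC26A6 at 1.44 ± 0.104, CA12 at 0.721 ± 0.085 and CFTR at 0.042 ± 0.018 (SD, n = 4 each). On this scale CFTR was below all but 0.170% of the tested genes. CFTR had failed the count filter that those genes passed, so a low place was largely fixed in advance. Its annotated exons span 16.8 kilobases against 6.22 for its longest transcript, and with the latter its level was 0.114.

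In the ADRA2A cells the order on this scale changed at several places. SLC12A2 led at 34.9 ± 2.95, followed by SLC4A2 at 28.4 ± 0.472, SLC4A4 at 25.9 ± 1.40 and ANO1 at 22.2 ± 0.812 (SD, n = 4 each). CA12 was next at 2.69 ± 0.153, ahead of CA2 at 1.47 ± 0.449, SLC26A6 at 1.36 ± 0.125 and CFTR at 0.026 ± 0.007 (SD, n = 4 each). CA2 and SLC26A6 did not differ beyond their spread in these cells. With the empty vector the first 3 places depended on the length used. With the longest transcript SLC12A2 was at 45.9, SLC4A2 at 45.3 and ANO1 at 44.8, values that lie close together. The lower places with the empty vector, and all places with ADRA2A, were the same with either length.

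**Figure D3:**
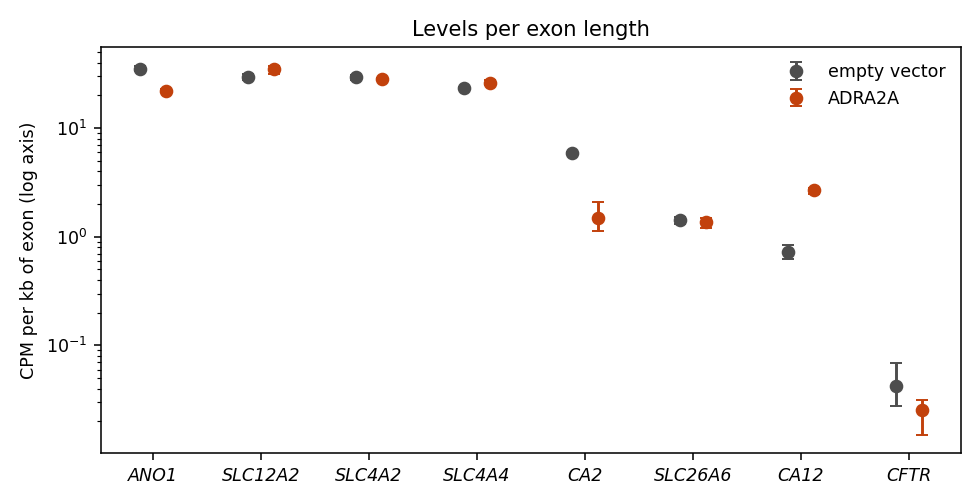
Level in CPM per kilobase of exon (logarithmic vertical axis) for 8 genes in empty-vector (grey) and ADRA2A (orange) libraries, with points at the mean and bars from the lowest to the highest of 4 libraries. CA12 and CA2 change places, ANO1 moves from rank 1 to rank 4 on this length (from rank 3 with the longest transcript), and CFTR is lowest in both groups.

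The chromosomal surroundings of each gene were set beside its change, as the 20 nearest tested genes on each side. Over all tested genes 21.1% were called lower and 21.6% higher, and the counts of neighbours stand beside these shares with no test. CA2, at -2.00, was below all 40 of its neighbours, which lay between -0.91 and 1.76 with a median log2 fold change of 0.00. CA12, at 1.90, was above all 40 of its neighbours, which lay between -0.87 and 1.17 with a median of 0.06. ANO1 was within the range of its 40 neighbours, of which 15 were called lower and 7 higher, with a median of -0.02. In a narrower window added after the values were seen, 9 of the 10 nearest tested genes were called lower and 0 higher, with a median of -0.32. They included CCND1 (cyclin D1) at -0.43 and FGF19, a growth factor gene and the nearest on one side, at -2.35. On the other side FADD, an adaptor of death receptors, was at -0.30 and CTTN, which encodes cortactin, at -0.12.

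Of the 40 neighbours of SLC4A4 21 were called lower and 3 higher, with a median of -0.19, while SLC4A4 itself was at 0.14. Around SLC4A2 16 of 40 were called higher and 5 lower, with a median of 0.12. For CFTR, SLC26A3, SLC26A6 and SLC12A2 the median of the neighbours lay between -0.05 and 0.03.

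**Figure D4:**
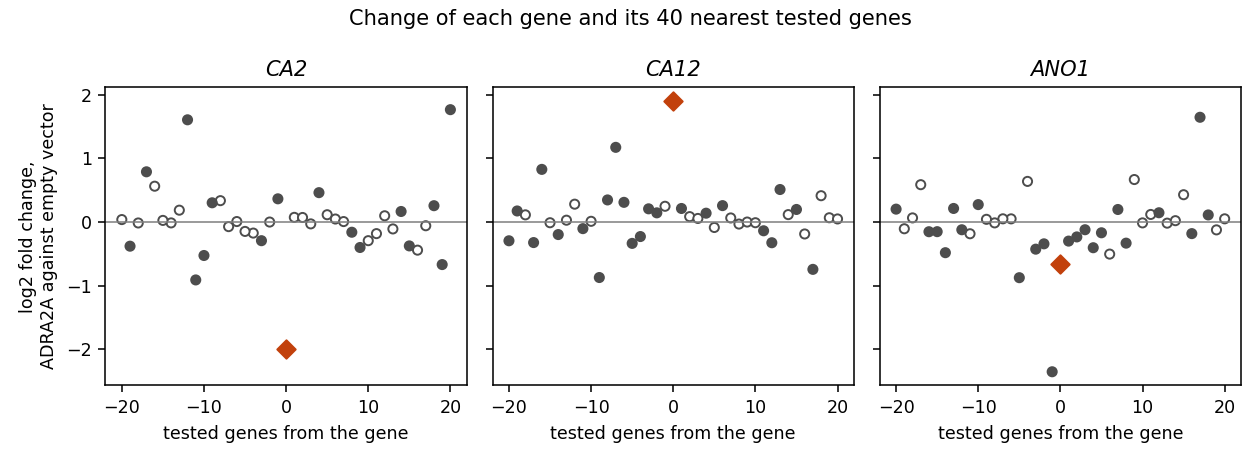
Log2 fold change of ADRA2A against empty vector (vertical axis) for CA2, CA12 and ANO1 (orange diamonds) and the 40 nearest tested genes of each (circles, filled where the adjusted p-value is under 0.05), by order along the chromosome. CA2 lies below and CA12 above all their neighbours, while the genes next to ANO1 are mostly lower as well.

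The rest of the secretory machinery was described with 7 lists. Together they held 143 genes, of which 111 were tested, 30 rose and 31 fell. This was 55.0% called, where 42.7% of all tested genes were, and the median log2 fold change was 0.02 against 0.00. Over all tested genes 21.6% were called higher and 21.1% lower. The lists were chosen with earlier results of these data known, and their counts stand beside these shares with no test. The share called was 62.5% for the driving force, 61.5% for receptors and G proteins, 61.1% for transcription factors and 57.1% for proteins that act on CFTR. It was 55.6% for other anion exchangers, 35.3% for other chloride channels and 33.3% for other carbonic anhydrases. Of the 111 tested genes of the lists, 5 were called and changed by 1 or more on the log2 scale (PDZK1, KCNQ1, SCTR, CDX2 and WNK4). Of all tested genes 4.66% did so.

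Receptors that drive or lower duct secretion, listed together with the G protein subunit genes GNAS, GNAQ and GNA11, included the secretin receptor. SCTR stood at 0.878, 2.51, 0.813 and 1.83 CPM with the empty vector and at 5.26, 4.88, 2.58 and 5.95 CPM with ADRA2A. Every ADRA2A library was higher, although the highest empty-vector library nearly reached ADRA2A replicate 3. SCTR rose by 1.64 ± 0.31 on the log2 scale (SE; adjusted p = 0.000248 by edgeR). It was 1 of 2 genes higher in this list of 20, of which 13 were tested and 6 fell, with a median of -0.13. The other was no receptor but GNAQ, at 0.15 (edgeR adjusted p = 0.0337). GNAS was 1 of the 6 that fell, at -0.13 (edgeR adjusted p = 0.00167). Those that fell included PTGER4, a prostaglandin E2 receptor coupled to Gs, at -0.51 (edgeR adjusted p = 9.08e-05) and F2RL1, the protease-activated receptor PAR2, at -0.31 (edgeR adjusted p = 1.56e-06).

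Of 35 genes for proteins that bind, traffic, phosphorylate or degrade CFTR, all were tested, 8 rose and 12 fell, and the median log2 fold change was -0.03. WNK4, a kinase that regulates ion transporters, rose from 8.47 ± 0.958 to 20.7 ± 1.16 CPM (SD, n = 4 per group). The fitted log2 change was 1.29 ± 0.09 (SE; adjusted p = 8.89e-10 by edgeR). NHERF1 and PDZK1, PDZ scaffolds that tether CFTR at the apical membrane, rose, NHERF1 (SLC9A3R1 in the table) by 0.32 (edgeR adjusted p = 5.67e-06) and PDZK1 by 2.03 from 0.394 to 1.62 CPM (edgeR adjusted p = 0.000312). A related scaffold, NHERF2 (SLC9A3R2 in the table), was lower, at -0.15 (edgeR adjusted p = 0.00565), and is named here after its value was seen. SYVN1, a ubiquitin ligase of the endoplasmic reticulum, rose by 0.28 (edgeR adjusted p = 3.84e-05). HSP90AA1, a chaperone gene, was at -0.34 (edgeR adjusted p = 1.21e-06).

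Of 22 genes for pumps, exchangers and channels that set the driving force, 16 were tested, 7 rose and 3 fell, with a median of 0.19. KCNK5, a potassium channel, rose from 59.8 ± 2.53 to 96.8 ± 3.20 CPM (SD, n = 4 per group). On the log2 scale the change was 0.69 ± 0.05 (SE; adjusted p = 2.19e-10 by edgeR). KCNQ1, a potassium channel partnered by KCNE subunits, rose by 1.74 at a low level, from 0.418 to 1.42 CPM (edgeR adjusted p = 0.000147). The epithelial sodium channel subunit gene SCNN1A rose by 0.35 (edgeR adjusted p = 1.31e-05).

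Among 15 other anion exchangers and bicarbonate cotransporters 9 were tested, 2 rose and 3 fell, with a median of -0.16. SLC4A11, a membrane transporter related to these by sequence, fell from 8.56 ± 0.730 to 4.32 ± 0.179 CPM (SD, n = 4 per group). Its log2 change came to -0.99 (adjusted p = 2.07e-06 by edgeR). SLC4A8, a sodium-driven chloride/bicarbonate exchanger, was at -0.75 (edgeR adjusted p = 1.38e-05). SLC4A3, an anion exchanger, rose by 0.43 (edgeR adjusted p = 0.0122), but without empty-vector replicate 4 its adjusted p was 0.0521. SLC4A7, a sodium bicarbonate cotransporter, was at -0.23 (edgeR adjusted p = 0.0178). For SLC4A7 the adjusted p was 0.0642 without empty-vector replicate 3 and 0.054 without ADRA2A replicate 2.

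Of 23 other chloride channel genes and their relatives 17 were tested, 3 rose and 3 fell, with a median of 0.09. The volume-regulated channel subunit genes LRRC8A and LRRC8C were at -0.26 (edgeR adjusted p = 6.99e-06) and -0.51 (edgeR adjusted p = 0.00265). TTYH3 rose by 0.34 (edgeR adjusted p = 3.72e-06) and CLCN6, which encodes a ClC transporter of endosomes, by 0.23 (edgeR adjusted p = 0.0039).

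All 18 transcription factors reported to bind the CFTR promoter or its enhancers were tested, and 7 rose and 4 fell, with a median of 0.01. ELF3, an epithelial ETS factor, rose from 240.2 to 380.7 CPM on average. The fitted log2 change was 0.66 (adjusted p = 7.73e-11 by edgeR). BHLHE40, a basic helix-loop-helix repressor, rose by 0.30 (edgeR adjusted p = 3.29e-05). HNF4A and CDX2, factors of gut epithelium, rose by 0.94 and 1.5 on the log2 scale (adjusted p = 1.77e-09 and 2.95e-06 by edgeR). CDX2 was low, at 2.02 and 5.67 CPM, empty vector first. The 4 that fell, named after their values were seen, were SOX9 at -0.21, RAD21 at -0.17, CREB1 at -0.17 and EHF at -0.10.

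**Figure D5:**
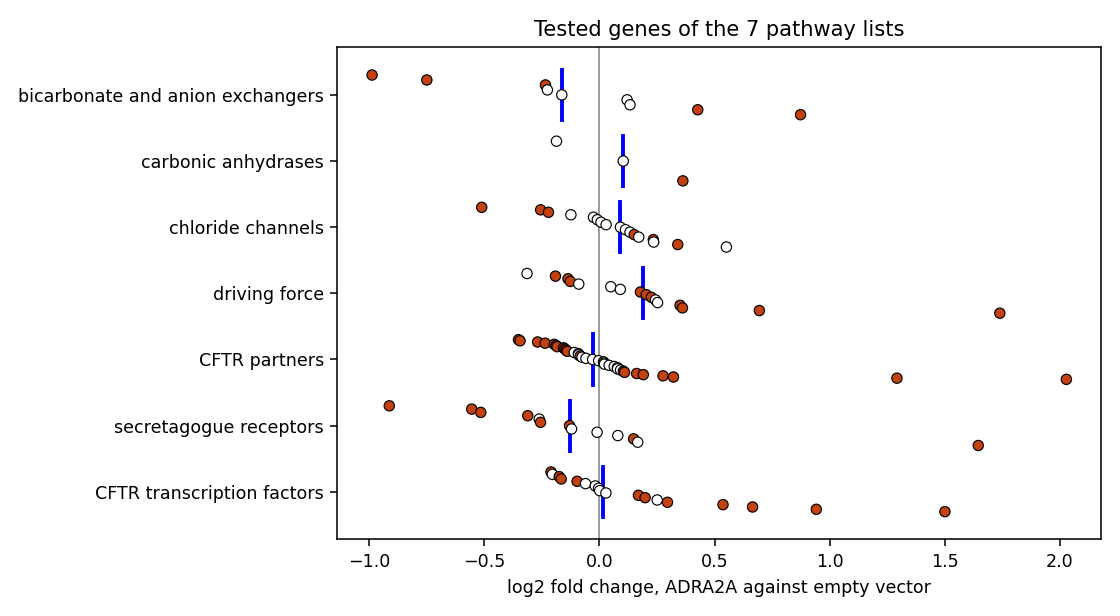
Log2 fold change of ADRA2A against empty vector (horizontal axis) for each tested gene of the 7 lists (circles, filled where the adjusted p-value is under 0.05), with a blue bar at each list's median. Every list median lies between -0.16 and 0.19, and most genes lie between -0.5 and 0.5.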

How the data were processed

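RNA sequencing of 8 CFPAC-1 libraries was analysed. The authors deposited 1 table of RSEM estimated counts per gene, not scaled between libraries. The tools cutadapt, STAR, RSEM and DESeq2 and the build hg38 are named, without versions or roles, per the submitters' processing notes. Annotation release and use of strand are not given in the sources used here. Columns were assigned by the name in each sample title, and 0 were left over. Counts were rounded, filtered with filterByExpr (edgeR 4.0.16), scaled by TMM and tested with the quasi-likelihood test, group as the only term, with Benjamini-Hochberg adjustment over 14785 genes and a threshold of 0.05. SE is the absolute log2 fold change over the square root of F. Positions, exon lengths and shared exon bases come from GENCODE on GRCh38, promoters from RefSeq. Genes were matched to GENCODE by Ensembl identifier without its version. The gene models used in counting may therefore differ from those that gave the positions and lengths. Alternatives used DESeq2 1.42.0 and limma 3.58.1 (voom), other factors, filters, a replicate block, and each library left out. The fits were tested on simulated data. The members and lists were chosen with earlier results of these data known. Named from each list were the 4 tested genes with the smallest p-value, plus SCTR, NHERF1 and PDZK1, and for CFTR the 5 genes, averaging 50 counts or more, whose log2 CPM correlated best with it. Some listed genes are not reported here by name. Others were named after their values were seen.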

Additional observations from a re-analysis of the deposited data

Results flagged for a closer look

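Among 73 groups of 4 libraries (38 genes), 3 held a library far from its group, where chance flags about 1 in 20. SLC4A7 stood at 24.0 CPM in empty-vector replicate 3, while the other 3 lay between 21.2 and 21.7 CPM. TTYH3 stood at 84.0 CPM in empty-vector replicate 4 against 93.2 to 94.1 CPM in the others. WNK4 stood at 19.0 CPM in ADRA2A replicate 3 against 21.1 to 21.5 CPM in the others. No group of the 9 chloride and bicarbonate genes was among them.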

How the results depend on the processing

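The members called stayed 5 (3 higher, 2 lower) in each of 15 alternative fits. The genes called overall lay between 5679 and 6550 against 6314, and the listed pathway genes between 51 and 62 against 61. The labels did not say whether same-numbered replicates of the groups were handled together. The correlations of their deviations were -0.01, -0.03, 0.07 and -0.02 for numbers 1 to 4, and not every library was closest to its own number. Between unlike numbers they ran from -0.096 to 0.13. So few libraries cannot settle whether the numbers mark pairs. With the replicate number as a block 6400 genes, 5 members and 61 pathway genes were called. Among the alternative log2 changes of single genes, 539 kept direction and side of the threshold, 3 lost the call, 1 gained it and 2 changed sign. With libraries left out in turn, CA9 (at -0.19 with all 8) ranged from -0.32 to 0.081, the latter without empty-vector replicate 3, and CA5B (at 0.10) from -0.059, without ADRA2A replicate 4, to 0.27; neither was called in any of them. CFTR passed no adjusted threshold with no filter (edgeR adjusted p = 0.342). Per length of the longest transcript, empty-vector levels were 44.8 (ANO1), 45.9 (SLC12A2), 45.3 (SLC4A2), 28.4 (SLC4A4), 7.60 (CA2), 1.61 (SLC26A6), 0.828 (CA12) and 0.114 (CFTR). ADRA2A levels were 28.5 (ANO1), 54.0 (SLC12A2), 43.6 (SLC4A2), 31.3 (SLC4A4), 1.89 (CA2), 1.52 (SLC26A6), 3.09 (CA12) and 0.0692 (CFTR), all higher than with all exons because the length is shorter. With 10 neighbours on each side the median log2 fold change was -0.026 for CFTR, -0.17 for SLC4A4 and -0.15 for ANO1. With 5, chosen after seeing the data, it was -0.094 for SLC26A3, -0.00042 for SLC26A6, 0.034 for CA2 and -0.32 for ANO1. Depth limits CFTR, CA3 and other genes under about 10 counts.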

Other observations

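Some listed genes were too low to be tested, and their counts are given as values chosen after they were seen. GPBAR1, the membrane bile acid receptor gene, had 4, 5, 1 and 1 counts in the empty-vector libraries and 16, 16, 18 and 9 counts in the ADRA2A libraries, so its groups did not overlap. KCNMA1, SCNN1B and SLC26A8 stayed under 0.1 CPM on average in both groups.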
